A study of Homo sapiens with 48 samples.

Results

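The genes described here encode the proton pump that acidifies lysosomes and a panel of lysosomal membrane proteins and enzymes. The panel was a list of 37 symbols, matched by gene identifier to 37 of the 58870 genes counted in the data. It held 6 subunits of the membrane sector of the proton pump, 8 subunits of its catalytic sector, 6 membrane proteins, 8 proteases, 7 other hydrolases and 2 soluble lipid carriers. Poly-A RNA was sequenced from 3 established human uveal melanoma cell lines, 92-1, MEL202 and MP41, all of them labelled WT for genotype. Each line received FHT-1015, which blocks SMARCA4 and SMARCA2, the motor subunits of the BAF chromatin remodellers, or the solvent DMSO alone, for 4 h or 24 h. A further set of 92-1 cultures received IDE196, a protein kinase C inhibitor, for 4 h or 24 h, and had a DMSO set of its own at both times. These 16 groups held 3 libraries each, 48 in all, labelled as biological replicates (1 to 3, and 4 to 6 for the DMSO set of IDE196). The doses were not given in the sources used here. The p-values below measure the spread between these samples of 1 line, labelled biological replicates, and the 3 lines are the only check across genetic backgrounds.

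Lysosomes break down proteins, lipids and glycans taken up by the cell or delivered by autophagy, and their enzymes need an acidic interior. That acidity comes from the V-ATPase, a rotary pump in which the V1 sector splits ATP in the cytoplasm and drives a ring in the membrane-bound V0 sector that carries protons inwards. Many lysosomal genes are known to carry the sequence CACGTG, or its extended form TCACGTGA, near their start, and factors of the MITF/TFE family (MITF, TFEB, TFE3 and TFEC) bind such sequences. MITF is also the lineage factor of melanocytes, whose pigment organelle, the melanosome, is related to lysosomes and uses the same pump.

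RefSeq windows of 250 bases before to 50 bases after the start site (build GRCh38.p14) were at hand for 23 of the 37 members. TCACGTGA stood in 6 of the 23 (26.09%) and in 1.18% of all 27305 windows. CACGTG, which every TCACGTGA contains, stood in 11 of the 23 (47.83%) against 8.77% of all windows, and CATGTG in 6 (26.09%) against 13.37%. Known MITF/TFE targets were among the reasons for the choice of members, so these shares are not independent of that choice. Both strands were searched, and a match describes the letters only. The stretches below are from members whose levels are described later, and they show that pump subunits, membrane proteins and enzymes share the motif. Those of ATP6V0B, ATP6V0D1, CLCN7, CTSF and CTSA overlap an exon of an annotated protein-coding transcript. They thus lie before the RefSeq start site used here, but not outside all transcripts. All are written 5′ to 3′ on the gene's own strand, with CACGTG, or TCACGTGA where the longer form is present, in capitals. They lie at chr1:43974891-43974920 (plus strand, ATP6V0B), chr16:67481199-67481228 (minus, ATP6V0D1), chr9:114587684-114587743 (plus, ATP6V1G1), chr16:1475058-1475087 (minus, CLCN7), chr13:113297179-113297238 (plus, LAMP1), chr19:7522557-7522616 (plus, MCOLN1), chr11:66568712-66568741 (minus, CTSF), chr20:45891298-45891327 (plus, CTSA) and chr17:80101478-80101537 (plus, GAA).
ATP6V0B: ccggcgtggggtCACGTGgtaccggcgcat
ATP6V0D1: cccccttatggTCACGTGAggcgcttgcgc
ATP6V1G1: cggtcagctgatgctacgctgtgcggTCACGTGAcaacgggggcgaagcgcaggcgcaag
CLCN7: gccgtcgctcatCACGTGgccccgtcgcgc
LAMP1: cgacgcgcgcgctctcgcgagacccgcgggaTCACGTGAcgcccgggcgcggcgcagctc
MCOLN1: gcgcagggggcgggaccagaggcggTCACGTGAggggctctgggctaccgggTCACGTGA
CTSF: acatataacaagCACGTGatagaggtcagt
CTSA: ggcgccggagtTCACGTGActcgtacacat
GAA: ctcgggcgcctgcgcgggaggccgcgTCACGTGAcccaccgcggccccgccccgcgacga
The window of LAMP1 held CACGTG 5 times before the start site, and those of GAA and MCOLN1 held TCACGTGA 2 times each.

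Libraries held 11394088 to 32317711 reads assigned to genes. The kit does not mark strand (49.73% to 50.11% of stranded reads fell on the first strand), and reads over 2 genes on opposite strands were left uncounted, which matters for the members named with an overlap below. Summed melanocyte markers (7 genes) ran from 2860 to 22200 CPM (reads normalised for library size, with TMM scaling within each experiment) over all libraries. Summed markers of other cell types reached at most 14.5 CPM (epithelial, 5 genes), 45.0 (fibroblast, 5), 4.65 (immune, 6, of which 2 never passed 3 reads) and 4.71 (endothelial, 5, of which 1 never passed 3 reads). One MEL202 library (FHT-1015, 4 h, replicate 2) had the fewest genes with a read, 17592, against 20023 in the next lowest library. Without that library MEL202 had 0 members called at 4 h, and 2 higher and 7 lower at 24 h. MP41 DMSO 24 h replicate 2 had 20353 genes with a read and the largest share of ambiguous reads, 12.53%. Among the MP41 controls at 24 h it was the highest for ATP6V0B, ATP6V0D1, CLCN7, NPC1, MCOLN1, NEU1, CTSB and SGSH. It was the lowest for LAMP2, ASAH1 and ATP6V1B2, so several MP41 values below lean on this library together. Under each drug, 35 (FHT-1015) or 36 (IDE196) members passed the filter on low counts and were tested with edgeR's quasi-likelihood test, with Benjamini-Hochberg adjustment over all genes tested and a threshold of 0.05. A member is called higher or lower where its adjusted p was under that threshold.

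In DMSO, members differed widely in level. Divided by exon length, the levels (CPM per kb, normalised over the 36 libraries of the 3 lines) were highest for PSAP, ATP6V1G1 and CTSB by the mean over the lines, CTSB through MEL202: in 92-1 and MP41 CTSL (109 ± 9.43 and 114 ± 13.5 CPM per kb) and ATP6V0E1 (90.0 ± 12.2 and 94.7 ± 11.8) stood above it. PSAP, the precursor of the saposins that help enzymes reach sphingolipids, averaged 292 ± 25.8 CPM per kb in 92-1, 492 ± 98.2 in MEL202 and 386 ± 96.2 in MP41 (SD, n = 6). ATP6V1G1, a stalk subunit of the pump, averaged 218 ± 17.8, 164 ± 48.6 and 135 ± 17.6 CPM per kb in the same order. CTSB, a cysteine protease, averaged 59.6 ± 4.08, 206 ± 38.5 and 57.2 ± 12.2 CPM per kb. The 6 MEL202 libraries were all above those of the other lines for CTSB, and 92-1 and MP41 overlapped. At the lower end stood CTSS (0.173 ± 0.0401, 0.327 ± 0.133 and 0.380 ± 0.162 CPM per kb), a protease best known from antigen-presenting cells, with 892 reads in all 48 libraries. ATP6V0C, the main proteolipid of the V0 ring, had 269 reads in all 48 libraries, but 57.5% of its exonic bases (862 of 1498) are shared with AC093525.2 on the same strand, where reads cannot be assigned, so its level is uncertain. ATP6V0D2, a tissue-restricted relative of ATP6V0D1, had 5 reads in total and at most 2 in a library. ATP6V0D1 itself averaged 12.9 ± 0.851, 17.8 ± 3.77 and 13.0 ± 3.90 CPM per kb.

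**Figure D1:**
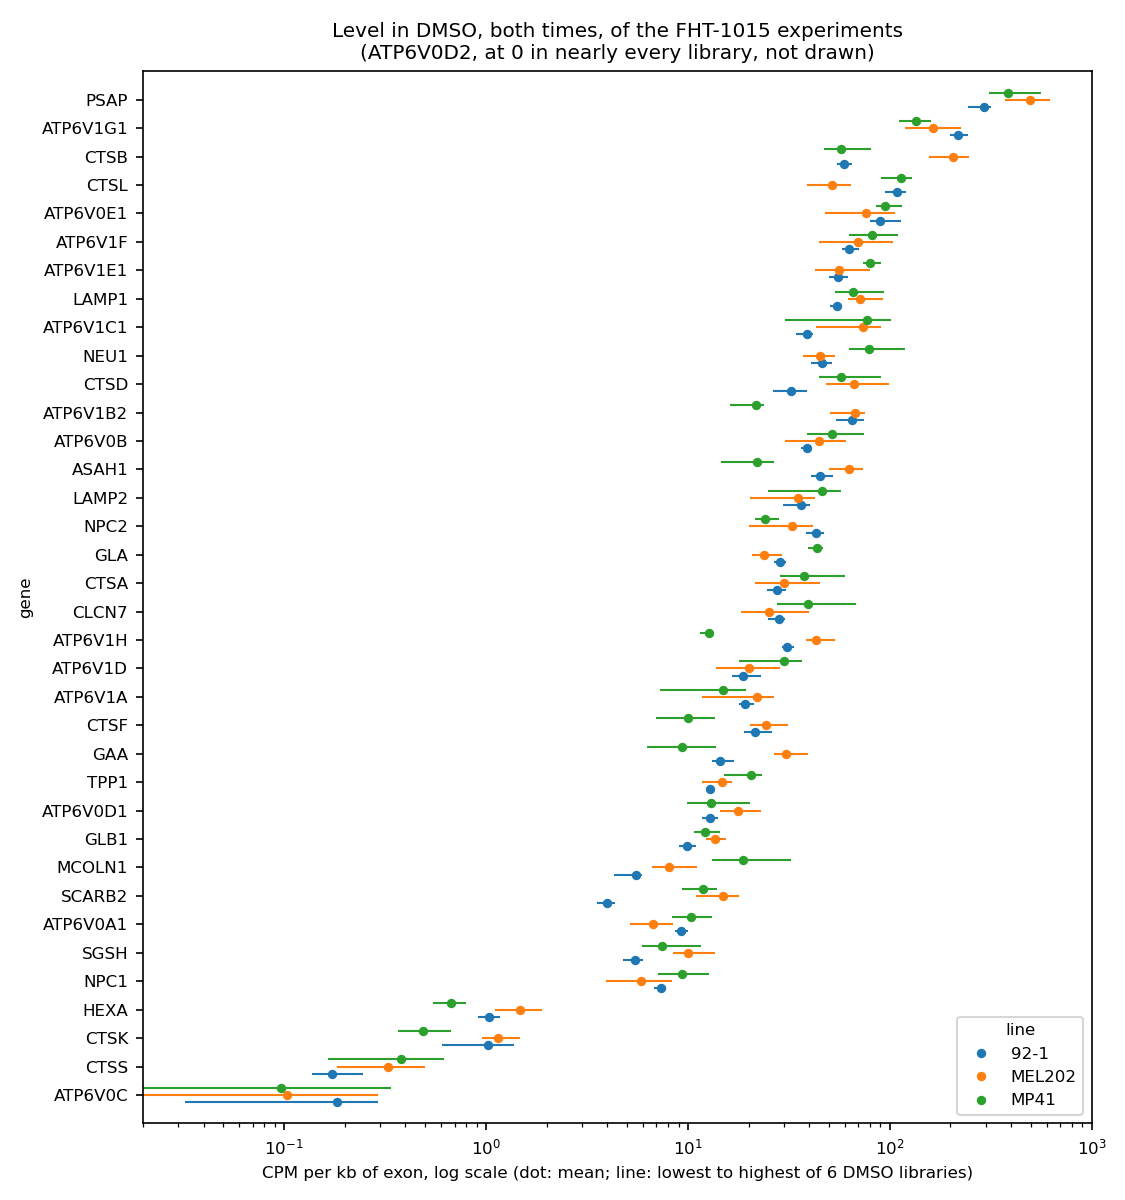
Levels of the members in DMSO (CPM per kb of exon, log axis) in 92-1, MEL202 and MP41. Dots are means and lines run from the lowest to the highest of 6 libraries; the lines of ATP6V0C that leave the left edge include libraries at 0, and ATP6V0D2 is not drawn. PSAP stands highest in each cell line. For ATP6V1H all 3 cell lines sit apart, and for SCARB2 92-1 sits below MEL202 and MP41, which overlap.

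Between the lines, 33 of 36 members tested differed in DMSO (edgeR, 3 lines compared at once), where 77.9% of all genes did. The highest mean was in MP41 for 17 members, in MEL202 for 16 and in 92-1 for 3, against 35.4%, 29.5% and 35.1% of all 18395 genes tested. For 3 members in MEL202 (CTSB, ATP6V1H and GAA), 3 in MP41 (NEU1, GLA and MCOLN1) and 0 in 92-1, every library of the highest line lay above all libraries of the others, which held for 5.41%, 10.7% and 9.63% of all genes. ATP6V1H was ordered MEL202 (42.9 ± 5.46 CPM per kb), 92-1 (31.2 ± 1.55) and MP41 (12.7 ± 0.796) with no overlap between neighbours (edgeR adjusted p 2.73e-17). SCARB2 averaged 4.00 ± 0.343 CPM per kb in 92-1, below every library of MEL202 (15.0 ± 2.97) and MP41 (11.9 ± 1.67), which overlapped each other (adjusted p 3.57e-15). The 2 DMSO sets of 92-1 cells differed as well: 28 of 36 members, against 60.4% of all genes, were called between the controls of IDE196 and those of FHT-1015 (16 higher and 12 lower in the IDE196 set; log2 difference 0.77 for GAA and -0.95 for HEXA). A difference in level between lines and a difference between experiments therefore cannot be told apart, and each drug is compared below with its own DMSO set.

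FHT-1015 lowered more members than it raised at 24 h in each line. In 92-1, 7 of 35 were higher and 20 lower, against 29.2% and 31.4% of all genes. In MEL202, 1 was higher and 7 lower (background 8.69% and 10.1%), and in MP41, 4 were higher and 13 lower (background 17.4% and 18.7%). Leaving out any 1 of the 6 MEL202 libraries at 24 h gave 0 higher and 1 to 4 lower (1 without FHT-1015 replicate 3). MP41 had 7 lower without FHT-1015 24 h replicate 1 or 3. With only the 6 samples compared, MP41 had 5 members lower. In that fit 1990 of 15115 genes were lower, so the count of members lies near the share of all genes. The median log2 fold change of the tested members was -0.27 in 92-1, -0.30 in MEL202 and -0.38 in MP41, where all genes tested had medians of -0.000817, -0.00551 and 0.0651. At 4 h, 92-1 had 3 members higher and 7 lower (background 12.9% and 16.7%; median -0.07). MEL202 had 0 and 0 at 4 h in edgeR (background 0.157% and 0.522%), with 0 members at an unadjusted p under 0.05 and none by DESeq2. MP41 also had 0 and 0 (background 0.0708% and 0.154%), with 1 member, ATP6V1B2, at an unadjusted p under 0.05. There 1 member was called lower by limma-voom and 1 when only the 6 samples compared were fitted. Those settings called 451 of 15543 and 250 of 14439 genes lower. In bulk samples, fewer cells of a type and less RNA per cell cannot be told apart.

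**Figure D2:**
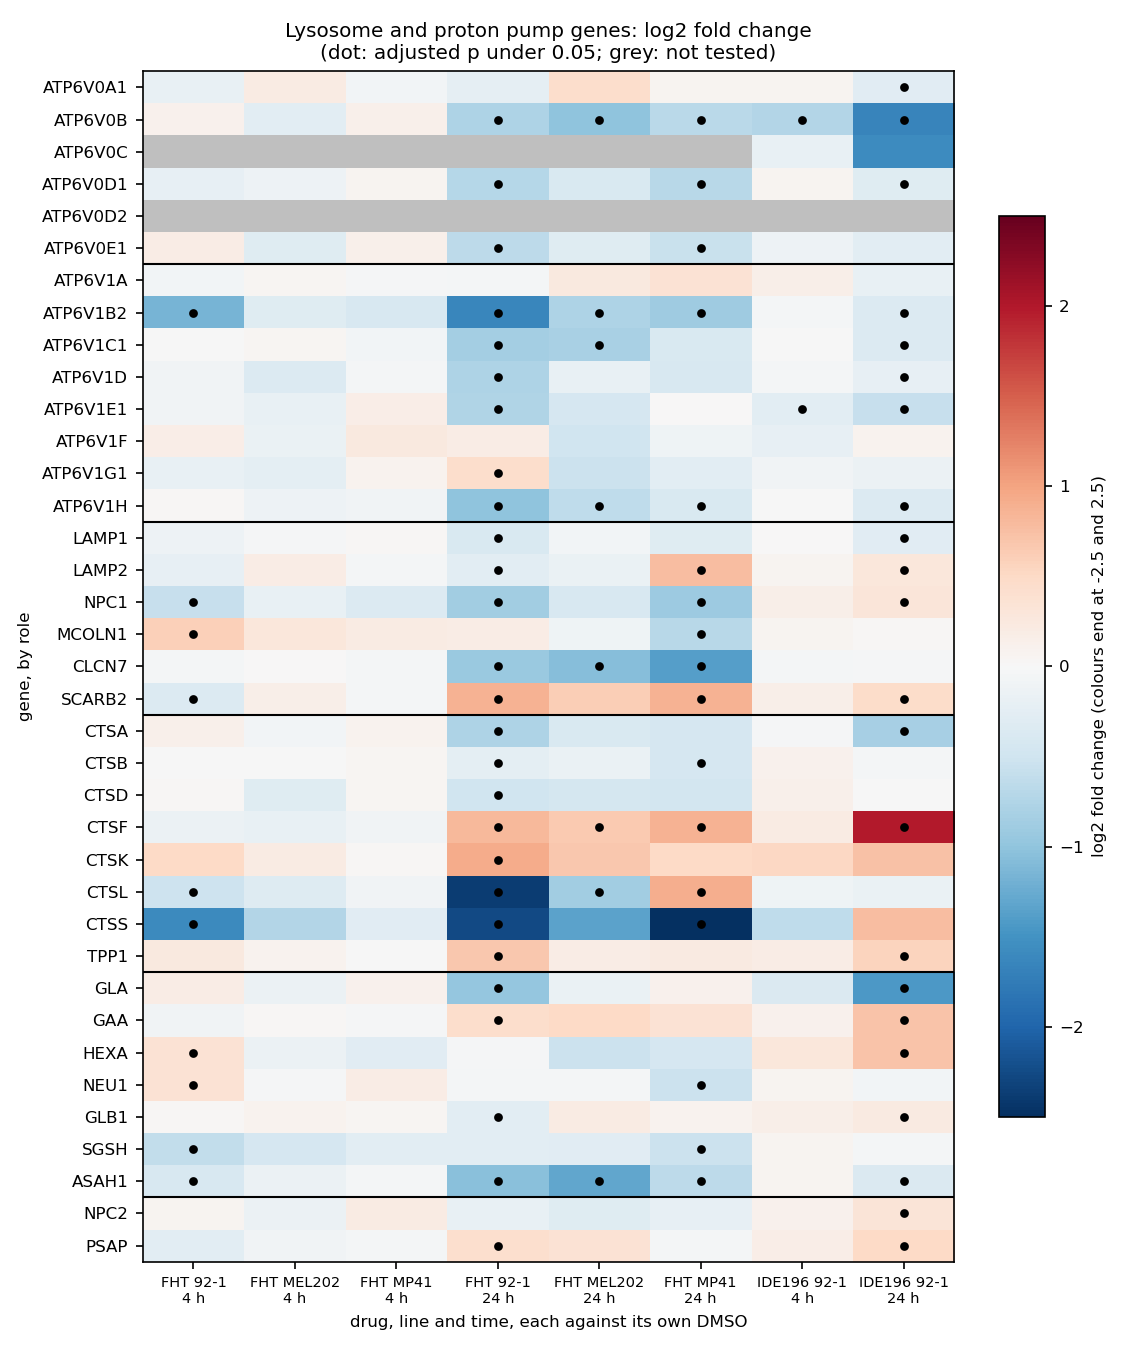
Log2 fold change of each member (lines, grouped by role) in the 8 drug comparisons (columns); blue is lower and red higher than DMSO, colours end at 2.5 in either direction, dots mark calls at an adjusted p under 0.05 and grey was not tested. The 24 h columns carry most of the dots, and the proton pump block is mainly blue.

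With IDE196 the counts in the 2 directions were closer. At 24 h, 10 of 36 were higher and 12 lower, against 28.7% and 29.4% of all genes, with a median of -0.05 (all genes 0.03). Without DMSO 24 h replicate 4, 9 were higher and 7 lower. At 4 h, 0 were higher and 2 lower (background 6.89% and 9.30%), with a median of 0.06. Of 35 members tested with both drugs in 92-1 at 24 h, 11 were lower with both, 5 higher with both and 3 were called in opposite directions, against 20.1%, 15.7% and 7.10% of the 14700 genes tested with both.

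**Figure D3:**
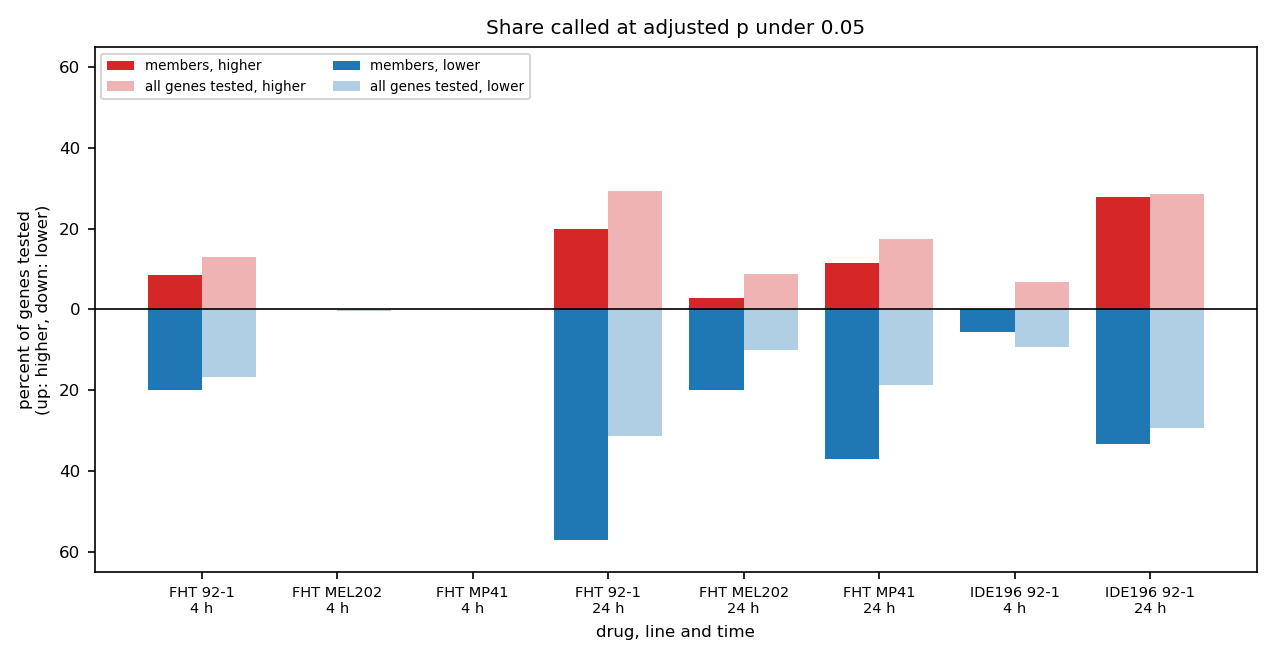
Percent of tested members and of all tested genes called higher or lower in each drug comparison. Bars up are calls higher and bars down calls lower; in the 24 h FHT-1015 comparisons the downward bars of the members are longer than those of all genes and the upward bars shorter, in 92-1, MEL202 and MP41.

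The V0 members were lower wherever they were called at 24 h. At 24 h, 3 of 4 tested V0 genes were lower in 92-1, 1 in MEL202 and 3 in MP41 after FHT-1015, and 3 of 5 after IDE196, with 0 higher, where 31.4%, 10.1%, 18.7% and 29.4% of all genes were called lower. ATP6V0B (ENSG00000117410.14, chr1:43974487-43978295, plus strand, build hg38), a proteolipid of the proton-carrying ring, was called in every 24 h comparison. In 92-1 it read 128, 139.9 and 137 CPM in DMSO and 81.4, 84.1 and 72.0 CPM after 24 h of FHT-1015, with every treated library lower (log2 fold change -0.77, SE 0.09, edgeR adjusted p 4.27e-06). MEL202 gave 174, 117 and 145 CPM in DMSO and 72.3, 74.2 and 70.3 CPM with FHT-1015 (log2 fold change -1.01, SE 0.25, edgeR adjusted p 0.012). MP41 gave 205, 257 and 142 CPM against 114, 142 and 121 CPM (log2 fold change -0.68, SE 0.20, edgeR adjusted p 0.0168). The groups were apart in MEL202, while in MP41 the highest treated and the lowest control library met. The MP41 call was lost with only the 6 samples compared (adjusted p 0.0606) and without FHT-1015 24 h replicate 1 (0.0607) or 3 (0.0577). The MEL202 call was lost without DMSO 24 h replicate 1 (0.0595) and without FHT-1015 24 h replicate 1 (0.0503) or 3 (0.0553). Under IDE196 the fall was deeper: 136, 118 and 122 CPM in DMSO and 40.5, 44.5 and 34.5 CPM in treated cells at 24 h, 0.317 times the control level (log2 fold change -1.66, SE 0.12, edgeR adjusted p 4.59e-09). It was already lower at 4 h of IDE196 (93.8, 127 and 118 CPM against 59.7, 72.2 and 71.5 CPM; log2 fold change -0.74, SE 0.12, edgeR adjusted p 0.000298), a time at which FHT-1015 left it at a log2 fold change of 0.11 (SE 0.09).

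ATP6V0D1 (ENSG00000159720.12, chr16:67438014-67481237, minus strand), the subunit that joins ring and rotor, was lower at 24 h in 92-1 (102, 95.7 and 98.7 CPM against 55.9, 61.2 and 62.9 CPM; log2 fold change -0.72, SE 0.08, edgeR adjusted p 1.56e-06). It was also lower in MP41 (120.3, 163 and 98.4 CPM against 82.4, 79.6 and 75.2 CPM; log2 fold change -0.69, SE 0.17, edgeR adjusted p 0.00643). Every treated library was below every control in both lines. MEL202 showed 118, 119 and 132 CPM against 93.4, 92.4 and 96.0 CPM, apart but not called (log2 fold change -0.39, SE 0.20). Under IDE196 it fell by less (log2 fold change -0.30, SE 0.08, edgeR adjusted p 0.00424). ATP6V0E1, a small subunit of the sector, had log2 fold changes of -0.65 in 92-1 and -0.55 in MP41, both called lower, and of -0.31 in MEL202 and -0.27 under IDE196, not called. ATP6V0A1, which forms the proton half-channels, was called lower with IDE196 alone among the 24 h comparisons (-0.28).

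In the V1 sector, ATP6V1B2 had the largest fall in 92-1 and MP41 at 24 h of FHT-1015, ATP6V1C1 in MEL202, and ATP6V1E1 with IDE196. Of 8 genes tested at 24 h, 5 were lower and 1 higher in 92-1, 3 lower in MEL202, 2 lower in MP41 and 5 lower with IDE196. All genes had 29.2% higher and 31.4% lower in 92-1, 10.1% lower in MEL202, 18.7% lower in MP41 and 29.4% lower with IDE196, so the MP41 count lies near the background. ATP6V1B2 (ENSG00000147416.11) encodes the widely expressed B subunit of the ATP-splitting hexamer. In 92-1 it had already fallen at 4 h of FHT-1015, from 545, 567 and 503 CPM to 259, 245 and 219 CPM (log2 fold change -1.16, SE 0.08, edgeR adjusted p 7.58e-08). At 24 h it read 481, 421 and 454 CPM in DMSO and 149, 142 and 146 CPM in treated cells, 0.322 times the control (log2 fold change -1.63, SE 0.09, edgeR adjusted p 3.40e-10). No treated library reached a control library at either time. MEL202 at 24 h gave 393, 516 and 554 CPM against 285, 288 and 284 CPM (log2 fold change -0.77, SE 0.21, edgeR adjusted p 0.0201), and MP41 gave 184, 123 and 170.4 CPM against 82.3, 79.6 and 94.6 CPM (log2 fold change -0.90, SE 0.15, edgeR adjusted p 0.00055). Groups did not overlap in these lines either, though the MEL202 call was lost when any 1 of DMSO 24 h replicates 2 and 3 and the 3 FHT-1015 24 h libraries was left out (adjusted p up to 0.104). At 4 h ATP6V1B2 was below DMSO in every library of MEL202 and MP41 too, without a call (log2 fold change -0.30, SE 0.21, and -0.39, SE 0.15). IDE196 changed it less: 442, 414 and 406 CPM against 363, 326 and 312 CPM at 24 h (log2 fold change -0.33, SE 0.09, edgeR adjusted p 0.00536).

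ATP6V1H (ENSG00000047249.18), a regulatory subunit that sits between the sectors, was tightly measured. In 92-1 it went from 152, 150.1 and 156 CPM to 76.0, 74.3 and 76.6 CPM at 24 h of FHT-1015 (log2 fold change -1.01, SE 0.08, edgeR adjusted p 2.05e-08), with 4 h libraries overlapping (log2 fold change 0.03). MEL202 went from 207, 196 and 209 CPM to 132, 129 and 136 CPM (log2 fold change -0.63, SE 0.19, edgeR adjusted p 0.0318) and MP41 from 68.2, 65.8 and 70.9 CPM to 54.1, 50.7 and 51.9 CPM (log2 fold change -0.39, SE 0.12, edgeR adjusted p 0.0217). No groups overlapped at 24 h, yet the calls outside 92-1 were weak. In MEL202 it did not hold in 7 of 12 fits without 1 library, namely each of the 6 libraries at 24 h and FHT-1015 4 h replicate 1 (adjusted p up to 0.119), with no filter (0.114) and with a replicate block (0.0622). In MP41 it was lost with no filter (0.171), with only the 6 samples (0.101), and without DMSO 24 h replicate 1 (0.0601) or FHT-1015 24 h replicate 2 (0.0727) or 3 (0.0655). IDE196 lowered ATP6V1H from 176, 169 and 147 CPM to 139, 127 and 122 CPM (log2 fold change -0.35, SE 0.09, edgeR adjusted p 0.00311).

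The stalk subunits did not move as a block. ATP6V1G1 (ENSG00000136888.7, chr9:114587746-114598373, plus strand) was the 1 V1 gene called higher: 304, 263 and 256 CPM in DMSO and 376, 359.6 and 387 CPM in 92-1 after 24 h of FHT-1015 (log2 fold change 0.45, SE 0.08, edgeR adjusted p 0.000179). In MEL202 its treated libraries lay below the controls (292, 153 and 199 CPM against 152, 147 and 145 CPM; log2 fold change -0.54, SE 0.32, not called). ATP6V1E1 (ENSG00000131100.13, chr22:17592136-17628818, minus strand), its partner in the stalk, was lower in 92-1 at 24 h of FHT-1015 (189.9, 166 and 158 CPM against 104, 101 and 98.8 CPM; log2 fold change -0.76, SE 0.08, edgeR adjusted p 9.62e-07). With IDE196 it was lower at both times: 94.0, 115 and 106 CPM against 85.5, 86.7 and 88.9 CPM at 4 h (log2 fold change -0.27, SE 0.09, edgeR adjusted p 0.0464) and 105, 103 and 107 CPM against 77.8, 69.8 and 64.8 CPM at 24 h (log2 fold change -0.57, SE 0.09, edgeR adjusted p 3.60e-05). The groups were apart each time, but the 4 h call was lost with no filter (0.0732), with only the 6 samples (0.0879) and in 9 of 12 fits without 1 library (up to 0.206). ATP6V1C1, which helps the sectors assemble, was called lower in 92-1 (-0.86), MEL202 (-0.82, adjusted p 0.0498) and with IDE196 (-0.34), and stood at -0.38 in MP41. Its MEL202 call did not hold without FHT-1015 24 h replicate 3. ATP6V1D, part of the rotor, was called lower in 92-1 (-0.77) and with IDE196 (-0.21). ATP6V1A, the catalytic subunit, and ATP6V1F were called in none of the 24 h comparisons, with log2 fold changes from -0.18 to 0.36 and from -0.50 to 0.18. For ATP6V1F most reads lie where KCP runs on the opposite strand: the stranded columns summed to 2.52 times its unstranded count.

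**Figure D4:**
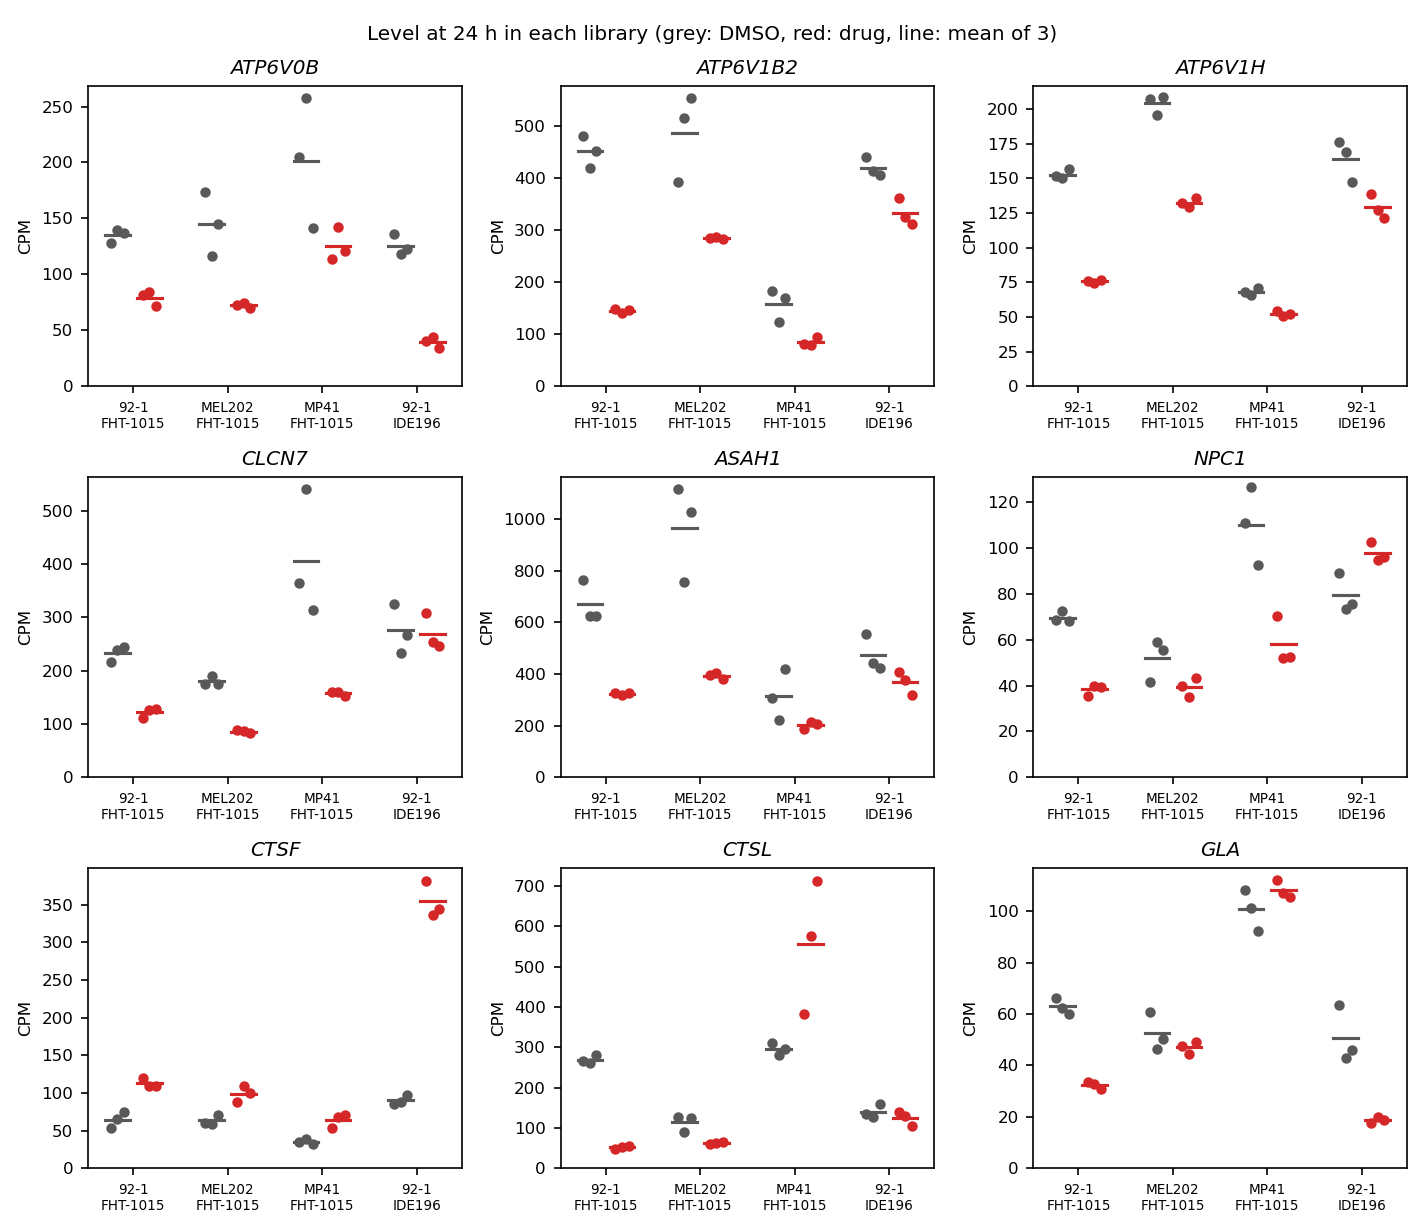
CPM of 9 members in each library at 24 h, DMSO in grey and drug in red, with lines at the mean of 3 libraries; each panel has the 3 FHT-1015 experiments and the IDE196 experiment. ATP6V0B, ATP6V1B2 and ATP6V1H fall in all 4 experiments, CTSF rises in all 4, and CTSL falls in 92-1 and MEL202 but rises in MP41.

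Membrane proteins moved in both directions. At 24 h of FHT-1015, 1 of 6 was higher and 4 lower in 92-1, 0 and 1 in MEL202, and 2 and 3 in MP41, and IDE196 gave 3 higher and 1 lower. Among all genes the shares higher and lower were 29.2% and 31.4% in 92-1, 8.69% and 10.1% in MEL202, 17.4% and 18.7% in MP41, and 28.7% and 29.4% with IDE196, so a single call among 6 genes is no departure from them. CLCN7 (ENSG00000103249.18, chr16:1444934-1475580, minus strand) encodes the chloride-proton exchanger of the lysosomal membrane. In 92-1 it read 216, 239 and 244 CPM in DMSO and 112, 126 and 128 CPM after FHT-1015 (log2 fold change -0.93, SE 0.09, edgeR adjusted p 2.51e-07). MEL202 went from 174, 189.5 and 176 CPM to 88.8, 86.1 and 82.3 CPM (log2 fold change -1.07, SE 0.27, edgeR adjusted p 0.0128), and MP41 from 365, 540.4 and 314 CPM to 159, 159.9 and 153 CPM (log2 fold change -1.37, SE 0.18, edgeR adjusted p 6.13e-05). Treated libraries were below all controls in each line, and MP41 DMSO replicate 2 stood above the other controls. The MEL202 call was lost without FHT-1015 24 h replicate 2 (adjusted p 0.0517) or 3 (0.0567). Under IDE196 the groups overlapped (326, 234 and 268 CPM against 307, 254 and 246 CPM; log2 fold change -0.04, SE 0.11). At 4 h of FHT-1015 its log2 fold changes lay between -0.06 and 0.00 in the 3 lines, with no call. Antisense genes overlap CLCN7, and its stranded columns summed to 1.48 times the unstranded count.

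SCARB2 (ENSG00000138760.10, chr4:76158733-76234536, minus strand), the receptor that carries glucocerebrosidase to lysosomes, went the other way at 24 h. In 92-1 it rose from 75.3, 68.5 and 68.6 CPM to 133, 121 and 137 CPM (log2 fold change 0.88, SE 0.09, edgeR adjusted p 8.47e-07), after being lower at 4 h (81.5, 77.4 and 80.2 CPM against 70.7, 62.2 and 55.1 CPM; log2 fold change -0.35, SE 0.09, edgeR adjusted p 0.011). MP41 rose from 212, 178 and 277 CPM to 401, 412 and 414 CPM (log2 fold change 0.88, SE 0.15, edgeR adjusted p 0.00063). In MEL202 every treated library was above the controls (265, 342 and 315 CPM against 486, 433 and 485 CPM), without a call (log2 fold change 0.61, SE 0.21, adjusted p 0.0622). IDE196 raised it as well (91.4, 98.8 and 87.3 CPM against 116, 134 and 129.7 CPM; log2 fold change 0.45, SE 0.08, edgeR adjusted p 0.000119).

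LAMP2 (ENSG00000005893.15, chrX:120427827-120469365, minus strand), a glycoprotein that lines the lysosomal membrane and serves in autophagy, was called in opposite directions in 2 lines. It was slightly lower in 92-1 at 24 h of FHT-1015 (208, 164 and 179 CPM against 152, 148 and 156 CPM; log2 fold change -0.27, SE 0.11, edgeR adjusted p 0.0458) and higher in MP41 (217, 134 and 326 CPM against 375, 375 and 405 CPM; log2 fold change 0.77, SE 0.23, edgeR adjusted p 0.0184). Groups were apart in both lines, and the MP41 controls were the widest. The 92-1 call was lost under RLE scaling (adjusted p 0.0649), library size alone (0.131), DESeq2 (0.0605) and in 5 of 12 fits without 1 library (up to 0.189; log2 fold change -0.18 without DMSO 24 h replicate 1). The MP41 call was lost with only the 6 samples (0.0976) and without DMSO 24 h replicate 1 (0.0614) or FHT-1015 24 h replicate 3 (0.0571), and the log2 fold change was 0.50 without DMSO 24 h replicate 2. IDE196 raised LAMP2 (255, 240.2 and 202 CPM against 289, 277 and 277 CPM; log2 fold change 0.27, SE 0.09, edgeR adjusted p 0.0119), a call lost without DMSO 24 h replicate 6 (0.0833; log2 fold change 0.18). LAMP1, its relative, was called lower in 92-1 (log2 fold change -0.37) and with IDE196 (-0.29), and stood at -0.07 in MEL202 and -0.30 in MP41.

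NPC1 (ENSG00000141458.13), which exports cholesterol from lysosomes, was lower with FHT-1015 and higher with IDE196. In 92-1 it fell by 4 h (75.2, 76.4 and 73.4 CPM against 55.2, 49.6 and 47.0 CPM; log2 fold change -0.57, SE 0.08, edgeR adjusted p 0.000111) and 24 h (68.4, 72.4 and 68.1 CPM against 35.5, 40.0 and 39.5 CPM; log2 fold change -0.86, SE 0.09, edgeR adjusted p 4.36e-07). MP41 fell from 111, 126 and 92.4 CPM to 70.2, 52.1 and 52.4 CPM at 24 h (log2 fold change -0.92, SE 0.18, edgeR adjusted p 0.00145). These groups did not overlap, whereas those of MEL202 did (41.4, 59.2 and 55.5 CPM against 39.7, 35.0 and 43.4 CPM; log2 fold change -0.40, SE 0.29). With IDE196 at 24 h it went from 89.0, 73.6 and 75.5 CPM to 102, 94.8 and 96.0 CPM (log2 fold change 0.30, SE 0.11, edgeR adjusted p 0.0307), a call lost without DMSO replicate 5 or 6 or any 1 of the 3 treated libraries at 24 h (up to 0.134). RMC1 overlaps NPC1 on the opposite strand over 604 exonic bases, and its stranded columns summed to 1.15 times the unstranded count. MCOLN1 (ENSG00000090674.16, chr19:7522626-7534009, plus strand), a calcium channel of the lysosomal membrane, was higher in 92-1 at 4 h (16.5, 22.0 and 21.4 CPM against 26.6, 30.8 and 32.7 CPM; log2 fold change 0.59, SE 0.12, edgeR adjusted p 0.00122) and near control at 24 h (0.19). In MP41 at 24 h it was lower (86.0, 125 and 70.2 CPM against 64.9, 61.3 and 47.5 CPM; log2 fold change -0.70, SE 0.20, edgeR adjusted p 0.0153), a call lost with only the 6 samples (0.0657) and without FHT-1015 24 h replicate 3 (0.0731), and the log2 fold change was -0.44 without DMSO 24 h replicate 2.

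Among the 8 proteases, 3 were higher and 5 lower in 92-1 at 24 h of FHT-1015, 1 and 1 in MEL202, 2 and 2 in MP41, and 2 higher and 1 lower with IDE196. The counts in MEL202 and MP41 lie near the background of 8.69% and 10.1% and of 17.4% and 18.7%, which was 29.2% and 31.4% in 92-1 and 28.7% and 29.4% with IDE196. CTSF (ENSG00000174080.11, chr11:66563463-66568841, minus strand), a cysteine protease, was the member called higher in all 3 lines and with IDE196. In 92-1 it rose from 53.1, 65.6 and 74.9 CPM to 120.5, 109.5 and 109 CPM (log2 fold change 0.81, SE 0.12, edgeR adjusted p 2.17e-05). MEL202 went from 60.4, 59.3 and 71.0 CPM to 87.9, 109.6 and 101 CPM (log2 fold change 0.64, SE 0.20, edgeR adjusted p 0.0403), and MP41 from 34.6, 38.8 and 32.8 CPM to 53.5, 68.5 and 71.3 CPM (log2 fold change 0.87, SE 0.16, edgeR adjusted p 0.000767). The largest rise of any member under any drug was that of CTSF with IDE196, from 85.2, 87.7 and 97.8 CPM to 382, 337 and 345 CPM, 3.93 times the control (log2 fold change 1.97, SE 0.11, edgeR adjusted p 2.27e-10). In none of these comparisons did a treated library reach down to a control. The MEL202 call was the weak one: it was lost with no filter (adjusted p 0.129), with a replicate block (0.0862) and in 7 of 12 fits without 1 library, namely each 24 h library and FHT-1015 4 h replicate 1 (up to 0.156).

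CTSL (ENSG00000135047.15, chr9:87725519-87731393, plus strand), another cysteine protease, moved in opposite directions among the lines. In 92-1 it fell from 266, 262 and 280.2 CPM to 47.95, 52.1 and 55.5 CPM at 24 h of FHT-1015, 0.193 times the control (log2 fold change -2.38, SE 0.09, edgeR adjusted p 9.27e-12), and it was lower by 4 h (239, 242 and 217 CPM against 173, 165 and 151 CPM; log2 fold change -0.52, SE 0.08, edgeR adjusted p 0.000191). MEL202 fell from 127, 91.0 and 125 CPM to 60.3, 63.5 and 64.8 CPM (log2 fold change -0.86, SE 0.25, edgeR adjusted p 0.0293). MP41 rose from 311, 280.1 and 296 CPM to 381, 576 and 711 CPM (log2 fold change 0.91, SE 0.20, edgeR adjusted p 0.00308). Groups were apart in each line, with the treated MP41 libraries spread over the widest range. The MEL202 call was lost without DMSO 24 h replicate 1 or 3 or any 1 of the 3 treated libraries at 24 h (up to 0.112). With IDE196 the groups overlapped (135, 126 and 159 CPM against 141, 130.3 and 105 CPM; log2 fold change -0.16, SE 0.15).

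CTSB was lower by a small margin in 92-1 at 24 h (461, 429 and 413 CPM against 377, 374 and 347 CPM; log2 fold change -0.25, SE 0.08, edgeR adjusted p 0.0113), a call lost without FHT-1015 24 h replicate 3 (0.0544). In MP41 it went from 442, 589.8 and 415 CPM to 327, 400.0 and 354 CPM (log2 fold change -0.42, SE 0.15, edgeR adjusted p 0.0459), a call lost under 3 alternatives (adjusted p 0.0823 with no filter, 0.0504 from the stranded columns and 0.132 with only the 6 samples) and in 8 of 12 fits without 1 library (log2 fold change -0.25 without DMSO 24 h replicate 2). CTSA (ENSG00000064601.18, chr20:45890144-45898820, plus strand), a carboxypeptidase that also protects galactosidase and neuraminidase, was lower in 92-1 with either drug at 24 h: 169.8, 156 and 144 CPM against 89.4, 92.4 and 92.5 CPM with FHT-1015 (log2 fold change -0.78, SE 0.08, edgeR adjusted p 1.00e-06) and 194, 147 and 150.2 CPM against 113, 87.2 and 74.5 CPM with IDE196 (log2 fold change -0.84, SE 0.13, edgeR adjusted p 4.05e-05). Treated libraries were below the controls in both. The stranded columns of CTSA summed to 1.66 times its unstranded count, since NEURL2 and other genes overlap it on the opposite strand. CTSD, the main aspartic protease, was called lower in 92-1 (log2 fold change -0.49) and stood at -0.44 in MEL202, -0.46 in MP41 and -0.00 with IDE196. It shares 41.7% of its exonic bases with AC068580.4 on the same strand, so its count is uncertain. TPP1, a serine peptidase, was called higher in 92-1 with FHT-1015 (0.68) and IDE196 (0.56).

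CTSS and CTSK were scarce. CTSS (ENSG00000163131.11, chr1:150730196-150765957, minus strand) fell in 92-1 at 24 h from 0.551, 0.802 and 0.678 CPM to 0.205, 0.0793 and 0.116 CPM (log2 fold change -2.26, SE 0.64, edgeR adjusted p 0.00664) and in MP41 from 1.91, 0.686 and 2.69 CPM to 0, 0.421 and 0.207 CPM (log2 fold change -2.95, SE 0.68, edgeR adjusted p 0.00416; -3.84 to -2.49 when 1 library was left out, -3.84 without FHT-1015 24 h replicate 2). It was below DMSO at 4 h in 92-1 as well (1.01, 0.636 and 0.605 CPM against 0.0417, 0.354 and 0.377 CPM; log2 fold change -1.59, SE 0.53, edgeR adjusted p 0.0336). Treated and control libraries did not overlap, but these values rest on few reads, and the 4 h call was lost with DESeq2 (0.0658), a replicate block (0.0631), only the 6 samples (0.0548), and without DMSO 4 h replicate 1 (0.134) or 2 (0.0573) or FHT-1015 4 h replicate 1 (0.118; log2 fold change -1.03). CTSK (ENSG00000143387.13, chr1:150796208-150808323, minus strand), the collagen-cutting protease of osteoclasts, had 1733 reads in 48 libraries. It was higher in 92-1 at 24 h of FHT-1015 (2.11, 2.59 and 2.22 CPM against 3.27, 3.96 and 5.82 CPM; log2 fold change 0.93, SE 0.34, edgeR adjusted p 0.0285), a call lost without DMSO 24 h replicate 1 (0.0767) or 3 (0.0714) or FHT-1015 24 h replicate 3 (0.152).

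The 7 glycan and lipid hydrolases had 1 higher and 3 lower in 92-1 at 24 h of FHT-1015, 0 and 1 in MEL202, 0 and 3 in MP41, and 3 and 2 with IDE196, beside 29.2%, 8.69%, 17.4% and 28.7% of all genes called higher and 31.4%, 10.1%, 18.7% and 29.4% called lower in that order. The MEL202 count is a single call. ASAH1 (ENSG00000104763.19), acid ceramidase, was lower in every line. In 92-1 it was 764, 626 and 626 CPM in DMSO and 325, 319 and 327 CPM treated at 24 h (log2 fold change -1.05, SE 0.10, edgeR adjusted p 2.63e-07), with a smaller fall at 4 h (666, 733 and 651 CPM against 538, 563 and 448 CPM; log2 fold change -0.40, SE 0.10, edgeR adjusted p 0.00603). MEL202 went from 1117, 757 and 1027 CPM to 396, 402 and 382 CPM (log2 fold change -1.30, SE 0.28, edgeR adjusted p 0.0053), and MP41 from 308, 221 and 421 CPM to 186, 214 and 208 CPM (log2 fold change -0.65, SE 0.19, edgeR adjusted p 0.0178). No 24 h groups overlapped, and the treated libraries of a line lay close together while controls were wider. The MP41 call was lost with only the 6 samples (0.0611) and without FHT-1015 24 h replicate 1 (0.0606). With IDE196 it fell by less (554, 443 and 422 CPM against 409, 375 and 319 CPM; log2 fold change -0.36, SE 0.10, edgeR adjusted p 0.0066), a call lost without DMSO 24 h replicate 4 (0.0542; log2 fold change -0.24).

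GLA (ENSG00000102393.10, chrX:101397803-101408012, minus strand), alpha-galactosidase A, was lower at 24 h in 92-1 with FHT-1015 (66.3, 62.5 and 60.02 CPM against 33.4, 32.8 and 30.7 CPM; log2 fold change -0.96, SE 0.08, edgeR adjusted p 9.93e-08) and further with IDE196 (63.6, 43.1 and 46.0 CPM against 17.7, 19.9 and 18.8 CPM; log2 fold change -1.44, SE 0.13, edgeR adjusted p 5.65e-08). Its groups overlapped in MEL202 (60.7, 46.4 and 50.4 CPM against 47.5, 44.4 and 49.2 CPM) and MP41 (108, 101 and 92.4 CPM against 112, 107 and 106 CPM), with log2 fold changes of -0.16 and 0.10. GLB1 (ENSG00000170266.16, chr3:32996608-33097230, minus strand), beta-galactosidase, was slightly lower with FHT-1015 in 92-1 (42.3, 42.9 and 40.2 CPM against 35.1, 32.1 and 37.8 CPM; log2 fold change -0.26, SE 0.10, edgeR adjusted p 0.0307) and slightly higher with IDE196 (45.5, 38.8 and 46.4 CPM against 52.6, 51.8 and 48.4 CPM; log2 fold change 0.23, SE 0.09, edgeR adjusted p 0.0407). Neither call on GLB1 was firm: the first was lost with library size alone (0.105), no filter (0.0803) and in 4 of 12 fits without 1 library (up to 0.119), and the second with no filter (0.139) and in 8 of 12 (up to 0.236, with a log2 fold change of 0.14 without DMSO 24 h replicate 5).

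GAA (ENSG00000171298.13, chr17:80101556-80119879, plus strand), the enzyme that digests glycogen in lysosomes, was higher with either drug in 92-1: 65.1, 75.2 and 86.5 CPM against 111, 94.2 and 104 CPM with FHT-1015 (log2 fold change 0.45, SE 0.10, edgeR adjusted p 0.00109) and 119, 119.9 and 126 CPM against 199.9, 194 and 206 CPM with IDE196 (log2 fold change 0.72, SE 0.08, edgeR adjusted p 5.26e-07). Its treated libraries also lay above the controls in MEL202 (148, 155 and 155 CPM against 202, 231 and 209 CPM) and MP41 (59.2, 69.5 and 45.9 CPM against 79.3, 72.4 and 71.8 CPM), without a call (log2 fold change 0.49 and 0.36). NEU1, the lysosomal sialidase, rose at 4 h of FHT-1015 in 92-1 (241, 226 and 212 CPM against 276, 274 and 318 CPM; log2 fold change 0.35, SE 0.09, edgeR adjusted p 0.00577) and was lower at 24 h in MP41 (437, 563 and 335 CPM against 292, 334 and 291 CPM; log2 fold change -0.54, SE 0.17, edgeR adjusted p 0.023). The MP41 value was lost as a call with only the 6 samples (0.0892) and without DMSO 24 h replicate 1 (0.0518) or 2 (0.0651, log2 fold change -0.34) or FHT-1015 24 h replicate 1 (0.0653) or 3 (0.0769).

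SGSH, which trims heparan sulfate, was lower at 4 h in 92-1 (35.6, 35.7 and 34.1 CPM against 20.6, 24.5 and 23.3 CPM; log2 fold change -0.62, SE 0.12, edgeR adjusted p 0.00078) and at 24 h in MP41 (54.8, 76.6 and 47.2 CPM against 39.5, 38.7 and 45.4 CPM; log2 fold change -0.53, SE 0.17, edgeR adjusted p 0.0247). Both pairs of groups were apart. The MP41 call was lost with only the 6 samples (0.103) and without FHT-1015 24 h replicate 1 (0.068) or 2 (0.083) or DMSO 24 h replicate 2 (0.0702, log2 fold change -0.31). HEXA, the alpha subunit of beta-hexosaminidase A, was higher at 4 h of FHT-1015 in 92-1 (14.1, 12.03 and 11.8 CPM against 17.5, 15.2 and 16.2 CPM; log2 fold change 0.37, SE 0.13, edgeR adjusted p 0.0406) and at 24 h of IDE196 (7.16, 5.15 and 7.02 CPM against 11.2, 9.79 and 10.7 CPM; log2 fold change 0.71, SE 0.15, edgeR adjusted p 0.000438). Its stranded columns summed to 4.85 times the unstranded count, so most of its reads lie where AC009690.2 and HEXA-AS1 run on the opposite strand, and from the stranded sums the 4 h call was lost (0.13, log2 fold change 0.18). The stranded sums gave 0.41 at 24 h of IDE196, still called (adjusted p 0.00602). The 4 h call was also lost with no filter (0.0679) and in 7 of 12 fits without 1 library (up to 0.137).

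The soluble lipid carriers were higher wherever they were called. PSAP (ENSG00000197746.14, chr10:71816298-71851375, minus strand) rose in 92-1 at 24 h with FHT-1015 (951, 786 and 919 CPM against 1244, 1168 and 1127 CPM; log2 fold change 0.41, SE 0.10, edgeR adjusted p 0.00252) and IDE196 (1335, 1244 and 1206 CPM against 1798, 1820.0 and 1759 CPM; log2 fold change 0.51, SE 0.08, edgeR adjusted p 3.26e-05). In MEL202 its treated libraries were above the controls (1193, 1399 and 1646 CPM against 1757, 1804 and 1917 CPM) at a log2 fold change of 0.37, not called, and in MP41 the groups overlapped (-0.06). NPC2, which hands cholesterol to NPC1, was called higher with IDE196 (0.33) and stood between -0.30 and -0.19 with FHT-1015 in the 3 lines.

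Across the 3 lines at 24 h of FHT-1015, 5 of 35 members were lower in each (ATP6V0B, ATP6V1B2, ATP6V1H, CLCN7 and ASAH1), 1 was higher in each (CTSF), 12 were lower and 2 higher in at least 2 lines, and 5 were called in no line. Of the 13677 genes tested in all lines, 7.65% were lower in each, 5.04% higher in each, 17.7% lower and 15.1% higher in at least 2, and 28.2% called in none. The difference of the effect among lines was tested directly. It was called for 5 of 36 members at 24 h, against 12% of all genes, and for 0 at 4 h, against 1.38%. Without the MEL202 library that had the fewest genes with a read (FHT-1015, 4 h, replicate 2) the counts were 8 and 1, and over all 36 fits without 1 library the 24 h count ran from 2 (without 92-1 DMSO 24 h replicate 1 or FHT-1015 24 h replicate 2) to 8. Limma-voom gave 23 at 24 h, where it called 9600 of all 18395 genes and edgeR called 2211. CTSL differed with an edgeR adjusted p of 1.13e-08, the log2 fold changes being -2.38 in 92-1, -0.86 in MEL202 and 0.91 in MP41. GLA differed with an adjusted p of 0.00236 (-0.96, -0.16 and 0.10), and ATP6V1B2 with 0.0222 (-1.63, -0.77 and -0.90). The ATP6V1B2 difference was lost without 92-1 DMSO 24 h replicate 1 (0.0718), 92-1 FHT-1015 24 h replicate 2 (0.058) or MEL202 DMSO 24 h replicate 1 (0.0503). LAMP2 (0.042) and MCOLN1 (0.0451) passed narrowly, and were lost with a replicate block (adjusted p 0.0505 and 0.0686) and in 25 and 27 of 36 fits without 1 library. MCOLN1 was also lost under RLE scaling (0.0647), library size alone (0.0539) and no filter (0.142). The spread among replicates was larger in MEL202 (biological coefficient of variation 0.294) and MP41 (0.217) than in 92-1 (0.117), so the number of calls in the lines is not a measure of how many members responded.

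Calls for a change with time were most numerous in 92-1. Comparing the 24 h with the 4 h effect of FHT-1015 gave a call for 21 members (6 upward, 15 downward) in 92-1, against 45.5% of all genes. MP41 had 7 such calls (3 upward and 4 downward, background 18.6%). MEL202 had 0 (background 6.89%), where DESeq2 or no filter gave 1 member and limma-voom 6. Limma-voom called 2551 of all 15913 genes in MEL202, and edgeR 1097. The MP41 count ran from 3 to 16 when 1 library was left out (16 without DMSO 24 h replicate 3). IDE196 gave 10 (4 upward, 6 downward; background 30.7%), or 6 with no filter and 5 to 12 when 1 library was left out (5 without DMSO 4 h replicate 6 or IDE196 24 h replicate 2, and 6 without IDE196 4 h replicate 1). In 92-1 CTSL fell further between the times (log2 difference -1.86, SE 0.12, edgeR adjusted p 1.70e-08) and SCARB2 turned from lower to higher (1.22, SE 0.13, adjusted p 2.74e-06). In MP41 CLCN7 (-1.31, adjusted p 0.00273) and CTSL (1.00, adjusted p 0.0251) changed most. With IDE196, CTSF (1.77, adjusted p 3.15e-07) and GLA (-1.07, adjusted p 0.000235) did.

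The effects of FHT-1015 and IDE196 in 92-1, each against its own DMSO set, were compared in 1 fit of 24 libraries. They differed for 9 of 36 members at 4 h (background 24.6%) and for 19 at 24 h (background 33.0%), of which 4 were higher and 15 lower with FHT-1015. At 4 h the difference was -1.12 on the log2 scale for ATP6V1B2 (SE 0.13, edgeR adjusted p 1.78e-07), which FHT-1015 alone lowered. It was 0.85 for ATP6V0B (SE 0.16, adjusted p 0.000209), which IDE196 alone lowered, and -0.72 for NPC1 (SE 0.14, adjusted p 0.000412). At 24 h the smallest p-values belonged to CTSL (difference -2.22, SE 0.19, adjusted p 3.79e-10), ATP6V1B2 (-1.30, SE 0.13, adjusted p 5.09e-09) and NPC1 (-1.17, SE 0.15, adjusted p 3.96e-07). Of the 3 members called in opposite directions by the drugs at 24 h, NPC1, LAMP2 (-0.55, adjusted p 0.00367) and GLB1 (-0.48, adjusted p 0.00509), each had a called difference. The drugs were given in separate experiments at doses not given here, so drug and experiment cannot be told apart in these differences.

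Of the MITF/TFE factors, MITF was lower in all 3 lines at 24 h of FHT-1015. MITF (ENSG00000187098.15, chr3:69739435-69968337, plus strand) in 92-1 at 24 h read 458, 346 and 384 CPM in DMSO and 131, 117 and 131 CPM with FHT-1015 (log2 fold change -1.65, SE 0.13, edgeR adjusted p 3.40e-08). It went from 318, 446 and 404 CPM to 100.2, 94.4 and 116 CPM in MEL202 (log2 fold change -1.91, SE 0.23, edgeR adjusted p 0.000106) and from 384, 387 and 625 CPM to 82.6, 72.5 and 81.8 CPM in MP41 (log2 fold change -2.56, SE 0.22, edgeR adjusted p 1.94e-06). The groups were far apart in each line. At 4 h MITF was not called (-0.32, -0.02 and -0.55 in 92-1, MEL202 and MP41). IDE196 lowered it at 4 h (log2 fold change -0.56, SE 0.09, edgeR adjusted p 0.000209) and left it near control at 24 h (0.10, adjusted p 0.356). TFEB (ENSG00000112561.18, chr6:41683978-41736259, minus strand) was scarce and fell at 4 h in 92-1, from 1.62, 1.96 and 2.78 CPM to 0.292, 0.354 and 0.440 CPM (log2 fold change -2.55, SE 0.38, edgeR adjusted p 0.000105), while IDE196 raised it at 4 h (log2 fold change 0.79, SE 0.22, edgeR adjusted p 0.0194) and 24 h (log2 fold change 1.25, SE 0.21, edgeR adjusted p 6.34e-05). The treated 92-1 libraries held 7 to 8 TFEB reads at 4 h. With FHT-1015 TFEB was not called at 4 h in MEL202 (-1.24) or MP41 (-0.40). Nor was it at 24 h (-0.41 in 92-1, 0.40 in MEL202 and -0.62 in MP41). TFE3 was higher at 24 h in 92-1 with FHT-1015 (log2 fold change 0.52, SE 0.11, edgeR adjusted p 0.000676). It was not called at 24 h in MEL202 (0.30) or MP41 (-0.20), and TFEC did not pass the filter. The 7 melanocyte markers, MITF included, were all called lower at 24 h of FHT-1015 in each line, whereas IDE196 gave 2 higher (DCT at 3.17 and SOX10 at 0.67) and 1 lower (TYR at -0.36), where 31.4%, 10.1% and 18.7% of all genes were lower with FHT-1015 in 92-1, MEL202 and MP41 and 28.7% higher and 29.4% lower with IDE196. The part of these changes in those of the lysosomal genes was not tested.

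**Figure D5:**
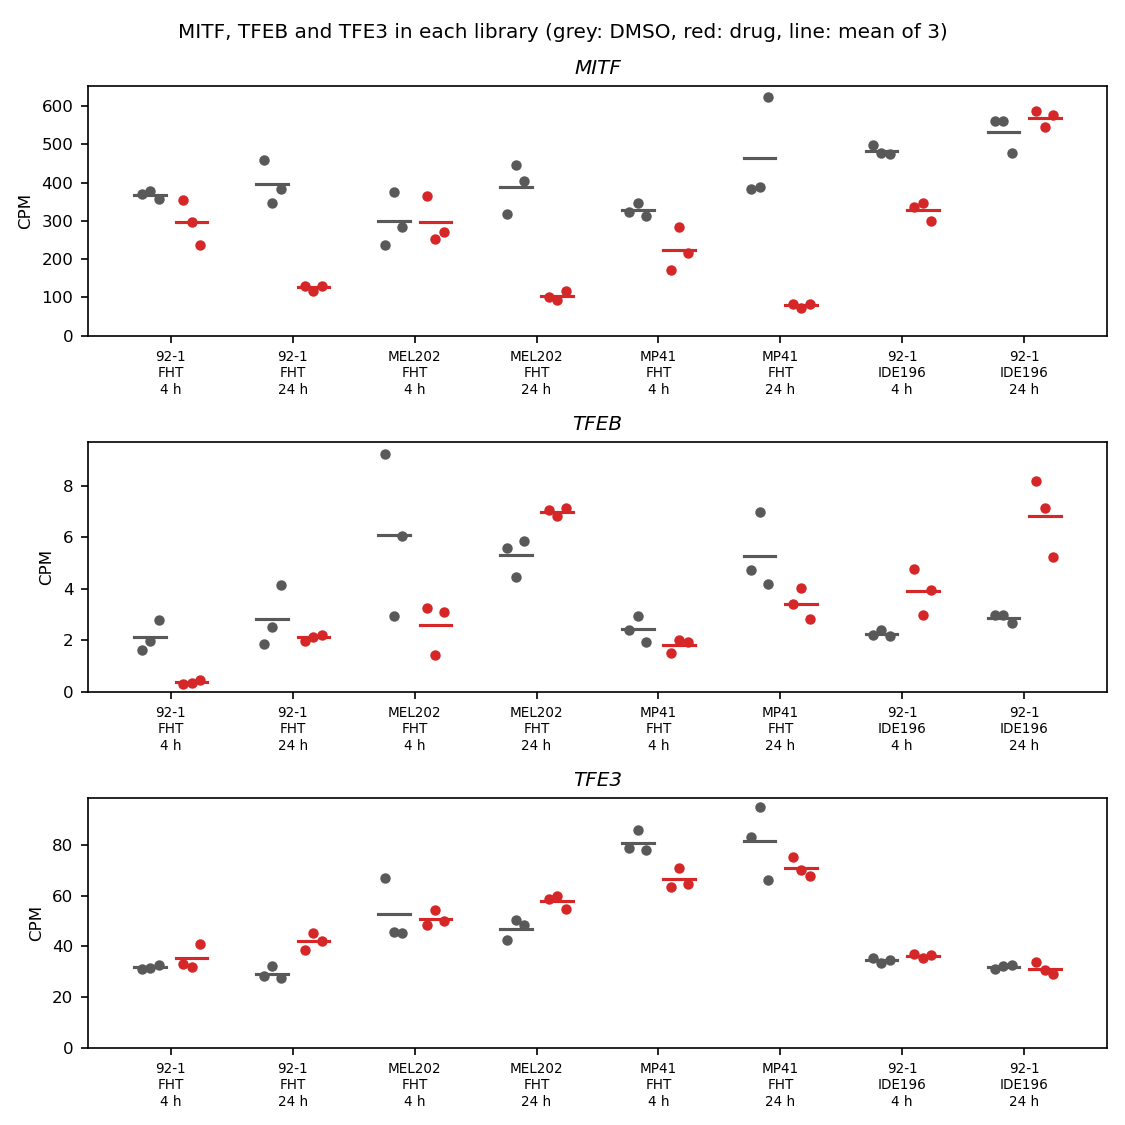
CPM of MITF, TFEB and TFE3 in each library, by experiment and time, with DMSO in grey, drug in red and lines at the mean of 3 libraries. MITF falls at 24 h of FHT-1015 in each line and stays near its control at 24 h of IDE196.

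Members with and without CACGTG before the start site were set side by side. At 24 h of FHT-1015 in 92-1, 3 of the 11 members with the motif were higher and 6 lower (median log2 fold change -0.37), and of 11 tested members whose window lacked it, 2 were higher and 6 lower (median -0.26). In MEL202 the counts were 1 and 2 with it (median -0.39) and 0 and 1 without it (-0.18). In MP41 they were 1 and 5 with it (-0.46) and 2 and 1 without it (0.07). With IDE196 they were 2 and 4 (-0.06) against 5 and 4 of 12 (-0.04). All genes had 29.2% higher and 31.4% lower in 92-1, 8.69% and 10.1% in MEL202, 17.4% and 18.7% in MP41, and 28.7% and 29.4% with IDE196, and with 11 or 12 genes a side nothing is read from these counts. The motif was present in members that fell, such as ATP6V0B and CLCN7, and in members that rose, such as CTSF and GAA.

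Other genes of the pathway, from lists drawn up by function, were called in both directions. The background is 29.2% higher and 31.4% lower in 92-1, 8.69% and 10.1% in MEL202, 17.4% and 18.7% in MP41, and 28.7% and 29.4% with IDE196, and several counts lie near it, such as those of the other enzymes in 92-1. At 24 h of FHT-1015, sorting genes that deliver enzymes to lysosomes had 0 of 10 higher and 6 lower in 92-1 (median log2 fold change -0.55), 1 and 3 in MEL202, and 1 and 3 in MP41. Nutrient sensing genes on the lysosome had 3 of 17 higher and 8 lower in 92-1, 0 and 2 in MEL202, and 0 and 5 in MP41. Autophagy genes had 6 of 19 higher and 7 lower in 92-1, 2 and 0 in MEL202, and 8 and 3 in MP41. Other lysosomal enzymes had 11 of 34 higher and 13 lower in 92-1, 6 and 4 in MEL202, and 8 and 5 in MP41. Other membrane proteins had 5 of 18 higher and 8 lower, 1 and 3, and 6 and 6, and other proton pump genes 5 of 9 higher and 3 lower, 2 and 2, and 2 and 1, in the same order. With IDE196 at 24 h the counts were 2 and 5 for sorting, 5 and 5 for nutrient sensing, 6 and 1 for autophagy, 15 and 10 for enzymes, 4 and 6 for membrane proteins, and 5 of 10 and 3 for the pump. The members' counts, 7 and 20 of 35 in 92-1, stand beside these as descriptions.

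The extremes of those lists were SIDT2 and ACP5. SIDT2, a lysosomal membrane protein that takes up nucleic acids, rose at 24 h of FHT-1015 by a log2 fold change of 2.62 in 92-1 (SE 0.13, edgeR adjusted p 2.49e-10), 1.80 in MEL202 (adjusted p 0.00214) and 1.33 in MP41 (adjusted p 0.00109), and by 2.33 with IDE196 (adjusted p 8.95e-10). ACP5, tartrate-resistant acid phosphatase, fell by 4.20 on the log2 scale in 92-1 (SE 0.20, adjusted p 1.02e-10) and had -2.92 in MEL202 (adjusted p 9.02e-06), -1.11 in MP41 (adjusted p 0.00288) and -0.89 with IDE196 (adjusted p 0.0023). At 4 h in 92-1 the extremes were CTSV (0.76, adjusted p 0.017), a cysteine protease, and FNIP2 (-1.62, adjusted p 1.32e-06), a partner of folliculin. In MP41 at 24 h the extremes were LMBRD1 (1.62, SE 0.37, adjusted p 0.00428) and SLC36A1 (-1.50, SE 0.19, adjusted p 4.07e-05). The size of the LMBRD1 rise is uncertain, as its controls ran from 3.32 to 15.8 CPM and its treated libraries from 25.5 to 29.2 CPM. With IDE196 at 4 h the largest rise was that of the autophagy gene ATG14 (0.76, adjusted p 0.000344), and the deepest fall was that of ATP6V1C2, a tissue-restricted relative of ATP6V1C1, at 4 h (-1.79, adjusted p 0.0491) and 24 h (-2.47, adjusted p 0.00328). Its reads were few: 16 to 17 in DMSO and 0 to 5 in treated libraries at 24 h, and 14 to 21 and 2 to 8 at 4 h.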

How the data were processed

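Values are the authors' deposited read counts per gene, 1 file for each library, in a 4-column layout that STAR writes; the unstranded column was used, as the kit in the labels' protocols does not mark strand. Per the submitters' processing notes the build was hg38 and limma was used; the aligner and the annotation were not given in the sources used here. Of the 58870 genes, 58552 matched GENCODE 29 by unversioned identifier (47420 with the same version); the 92 spike-in controls had 0 reads. Reads outside genes (2.35% to 7.32%) and ambiguous reads (9.83% to 12.5%) were left out of library sizes. Depth was 11394088 to 32317711 reads in genes; CTSS had at most 62 reads in a library.

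Each experiment (12 libraries) was fitted in R 4.3.3 with edgeR 4.0.16 (TMM, filterByExpr, quasi-likelihood test, group means, no replicate term), with Benjamini-Hochberg adjustment over all genes tested. Joint fits of 36 libraries (lines) and 24 libraries (drugs) gave the differences of effects. SE is the log2 fold change divided by the root of F. The scripts were tested on simulated data. Alternatives were RLE scaling, library size alone, no filter, DESeq2 1.42.0, limma 3.58.1 (voom with quality weights), the sum of both stranded columns, only the 6 samples compared, a replicate block, leaving out each library, and a shorter promoter window.

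The members, lists and rules were chosen with earlier results of these data known. Full values are given for members called alike in all 3 lines, called oppositely between lines or drugs, up to 3 with the largest rise and fall in each drug comparison, up to 3 with the smallest p for a difference between lines or drugs, the ATP6V0D1 and ATP6V0D2 pair, and the 3 highest and lowest in DMSO per length; other lists give counts and, in each drug comparison, the called gene with the largest rise and fall. Other members are given as log2 fold changes. Replicate numbers were not taken to pair the samples. Promoter sequences are RefSeq's; the members without one were not searched.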

Additional observations from a re-analysis of the deposited data

Results flagged for a closer look

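The effect of a drug on some members differed between the 2 times. It did so for 21 members in 92-1 and 7 in MP41 with FHT-1015, and for 10 in 92-1 with IDE196, by a test of the 24 h effect minus the 4 h effect in edgeR. Of all genes, 45.5%, 18.6% and 30.7% were called in the same order, the last 2 shares near those of the members, and the MP41 and IDE196 counts ran from 3 to 16 and from 5 to 12 when 1 library was left out. For the 2 members with the largest such change in each, the log2 difference was -1.86 for CTSL and 1.22 for SCARB2 in 92-1, -1.31 for CLCN7 and 1.00 for CTSL in MP41, and 1.77 for CTSF and -1.07 for GLA with IDE196. SCARB2 was called lower at 4 h and higher at 24 h in 92-1.

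The effect of FHT-1015 at 24 h differed among the 3 lines for 5 of 36 members, near the 12% of all genes, by a test of that difference in edgeR, and for 2 to 8 when 1 library was left out. The adjusted p was 1.13e-08 for CTSL, 0.00236 for GLA, 0.0222 for ATP6V1B2, 0.042 for LAMP2 and 0.0451 for MCOLN1. The last 2 were lost with a replicate block and in 25 and 27 of 36 fits without 1 library, and MCOLN1 also under RLE scaling, library size alone and no filter. For CTSL and LAMP2, calls of both signs occurred among the lines.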

How the results depend on the processing

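Of 72 called log2 fold changes of the named members, 56 kept their call under every other setting that gave them a value (no replicate block with IDE196, and CTSS in 92-1 at 24 h not tested with only the 6 samples), 47 in every fit without 1 library and 47 under both, and 0 changed sign. With limma-voom, members higher and lower in 92-1 at 4 h numbered 5 and 12 (3 and 7 in the edgeR fit). They numbered 5 and 18 in MEL202 at 24 h (1 and 7), and 1 was lower in MP41 at 4 h (0). The effect differed between times for 6 in MEL202 (0) and 17 in MP41 (7). Among lines it did so for 1 at 4 h (0) and 23 at 24 h (5). More of all genes were called by limma-voom as well. In 92-1 at 4 h, 3124 were higher and 3562 lower of 15685 (edgeR 2016 and 2615). In MEL202 at 24 h it was 4484 and 4340 of 15913 (1383 and 1601), and in MP41 at 4 h 451 were lower of 15543 (24). Between times 2551 were called in MEL202 (1097) and 7353 in MP41 (2890). Among lines 1487 of 18395 were called at 4 h (253) and 9600 at 24 h (2211). With library size alone, 5 were higher in 92-1 at 4 h, and with it or RLE scaling 1 differed among lines at 4 h; the median of all genes between the DMSO sets of 92-1 was -0.14 with library size alone and -0.04 with TMM. Members higher in MEL202 at 24 h numbered 0 with no filter, 2 with DESeq2, 4 with only the 6 samples compared and 0 with a replicate block. Of all genes, 1370 of 33177, 1930 of 15913, 3123 of 15261 and 1152 of 15913 were higher in that order. With no filter or DESeq2, 1 differed between times in MEL202, and with no filter 6 did with IDE196 (10). With only the 6 samples compared, 1 was lower in MP41 at 4 h and 5 were lower at 24 h (13). Of all genes, 250 of 14439 and 1990 of 15115 were lower in those fits. The replicate block gave 4 higher and 7 lower in 92-1 at 4 h, 7 and 22 at 24 h, 5 lower in MEL202 and 4 higher and 14 lower in MP41 at 24 h; 7 of 18 same-numbered pairs of drug and DMSO libraries had deviations correlated above 0.1 (range -0.32 to 0.51), and 11 of 18 libraries, among them all 6 of MP41, correlated best with their own number. The IDE196 groups share no replicate numbers with their controls.

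Leaving out 1 library gave 0 to 2 members higher and 1 to 7 lower in MEL202 at 24 h (lowest without FHT-1015 24 h replicate 3). It gave 7 to 16 lower in MP41 at 24 h (7 without FHT-1015 24 h replicate 1 or 3, 16 without DMSO 24 h replicate 3), and with IDE196 1 to 2 lower at 4 h and 7 to 13 at 24 h (7 without DMSO 24 h replicate 4). Members differing between times numbered 0 to 1 in MEL202, 3 to 16 in MP41 (16 without DMSO 24 h replicate 3) and 5 to 12 with IDE196, and among lines 0 to 1 at 4 h and 2 to 8 at 24 h (2 without 92-1 DMSO 24 h replicate 1). The cause of these changes was not tested. Depth limits CTSS, CTSK, ATP6V0D2 and ATP6V1C2, and overlapping genes limit ATP6V0C, CTSD, HEXA, ATP6V1F, CTSA and CLCN7.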
